A study of Mus musculus with 6 samples.

Results

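A set of 9 genes of hemostasis and fibrinolysis known from endothelial cells (ECs) was followed in sorted kidney ECs of mice with an endothelial deletion of Rbpj, the mediator of canonical Notch signalling. They were listed by name, with no threshold on a measured value but with earlier results of these data known: Vwf, Thbd, Procr, Tfpi, F8, F3, Plat, Mmrn2 and multimerin 1. They are 9 of the 55401 genes in the deposited table. Multimerin 1 was found there under its symbol Mmrn1, and the other 8 under the names given. All 9 passed the filter on low counts, which left 18438 genes to test.

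RNA-seq libraries were made from CD31+ CD45- cells of mouse kidney, 1 library per mouse and 3 mice per group. The CTRL group was Cre -/-; Rbpjf/f and the RbpjDEC group was Cre +/-; Rbpjf/f, so both groups carried the floxed Rbpj alleles and differed by the Cdh5(PAC)-CreERT2 transgene. The Cdh5 (VE-cadherin) promoter drives this Cre in endothelium throughout the body. Both groups received tamoxifen, which activates the Cre, as 5 intraperitoneal doses of 1.5 mg at 8 weeks of age. Kidneys of these male mice were taken 12 weeks later, and the labels give an age of 21 weeks. The comparison asks how mRNA of the hemostasis genes differed in kidney ECs of mice in which Rbpj had been targeted.

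Endothelium keeps blood fluid and can switch to stopping a leak. Thrombomodulin (Thbd) and the endothelial protein C receptor (Procr) turn thrombin towards activation of protein C, while tissue factor pathway inhibitor (Tfpi) restrains tissue factor (F3), the starter of coagulation. Von Willebrand factor (Vwf) tethers platelets and carries factor VIII (F8) in plasma, and tissue plasminogen activator (Plat) starts the lysis of fibrin. Multimerin 1 (Mmrn1) is a large secreted protein that binds factor V, and multimerin 2 (Mmrn2) is an endothelial matrix protein that binds CD93 and CLEC14A. Canonical Notch signalling acts through Rbpj, which binds DNA at the letters TGGGAA.

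The 6 libraries held 39649171 to 47726850 counts, so that a count of 3, taken as the limit of detection, corresponded to 0.0629 to 0.0757 CPM (counts scaled to a common library size). More genes had a count in CTRL 1 (33764) than in the other libraries (25629 to 26785). Rbpj itself had 28.1, 29.7 and 29.8 CPM in CTRL and 28.8, 26.1 and 29.6 CPM in RbpjDEC. These counts cover the whole gene and do not show the floxed part, so they do not check the genotype. Among Notch target genes, Hey1 averaged 19.7 and 11.6 CPM (edgeR adjusted p = 0.0722), and the median over the 5 listed was -0.69 in log2. Before adjustment 2 of the 5 were lower and 1 higher at p under 0.05. EdgeR called 1 of them, Nrarp, higher (0.47 in log2) and 0 lower, while DESeq2 called 2 lower and 1 higher. The 12 pan-endothelial markers, among them Pecam1 and Cdh5, were all detected and summed to 22343 to 24475 CPM in CTRL and 20260 to 20610 CPM in RbpjDEC, without overlap. Lymphocyte markers summed to 1.84 to 4.73 and 0.780 to 2.19 CPM, with Cd3e and Cd3d at 0 in every library. Platelet and megakaryocyte markers summed to 6.55 to 11.8 and 7.79 to 10.5 CPM, with Treml1 at 0. Fibroblast markers, with Dpt at 0, summed to 3.40 to 4.90 and 1.07 to 2.12 CPM. Tubule markers (268 to 409 against 95.7 to 360 CPM) and podocyte markers (223 to 246 against 251 to 271 CPM) were also present. Of the 5 podocyte markers, 3 had log2 fold changes below 0 and the median was -0.66, opposite to their sum. Macrophage markers summed to 14.1 to 14.8 against 23.5 to 27.9 CPM, where Cd68 was higher and the other 3 of 4 tested had log2 fold changes below 0 (median -0.73).

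Of the 9 hemostasis genes, 1 was called lower in RbpjDEC, Vwf, and none was called higher (threshold 0.05 on edgeR's adjusted p, by its quasi-likelihood test). Over all genes tested, 0.559% were called lower and 0.575% higher, or 1.13% in either direction. At an unadjusted p under 0.05, 6 of the 9 were lower (Vwf, Thbd, F8, Plat, Mmrn2 and Mmrn1) and 0 higher, beside 8.62% and 8.88% of all genes. DESeq2 and limma voom also called 1 of the 9 lower and 0 higher, where over all genes DESeq2 called 2.77% lower and 2.35% higher and limma voom 0.656% and 0.667%. The log2 fold change of RbpjDEC over CTRL was below 0 for 8 of the 9, with Procr the exception, and its median was -0.26, beside 0.0072 and 48.9% below 0 over all genes tested. The 3 RbpjDEC libraries lay below the 3 CTRL libraries for 5 of the 9 (Vwf, Thbd, F8, Plat and Mmrn1), beside 11.6% of all genes.

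**Figure D1:**
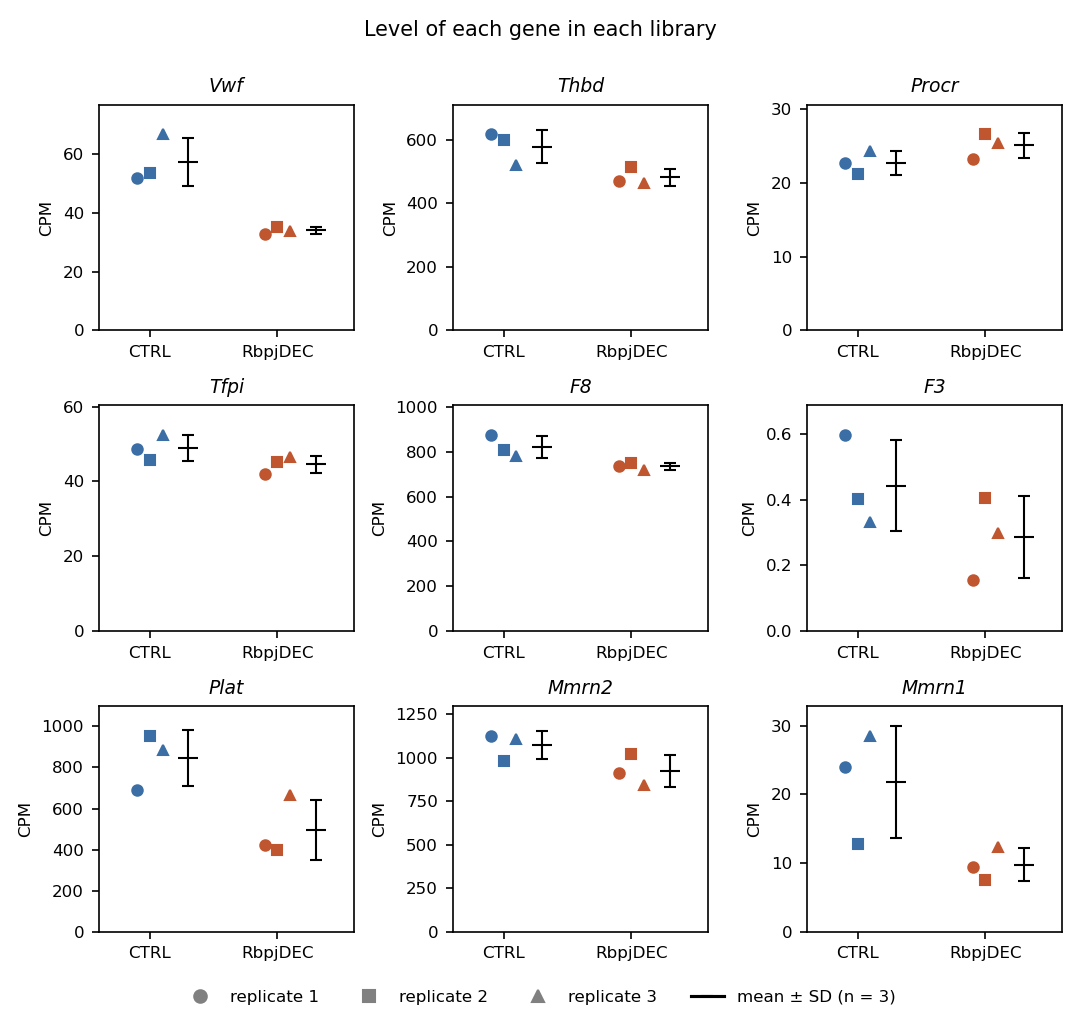
Normalised CPM of each of the 9 hemostasis genes in every library (points, y axis starting at 0, 1 panel per gene), with the group mean as a line and the SD as an error bar, for CTRL and RbpjDEC. The groups lay apart for Vwf, Thbd, F8, Plat and Mmrn1 and overlapped for Procr, Tfpi, F3 and Mmrn2.

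Von Willebrand factor mRNA fell in RbpjDEC kidney ECs. Vwf (ENSMUSG00000001930.17, GRCm38 chr6:125546774-125686679, plus strand, 56 exons) had 51.8, 53.6 and 66.7 CPM in CTRL and 32.9, 35.3 and 34.0 CPM in RbpjDEC. The lowest CTRL library was above the highest RbpjDEC library, and the RbpjDEC libraries lay close together (57.4 ± 8.17 against 34.0 ± 1.23 CPM, SD, n = 3 per group). The log2 fold change was -0.75 (SE 0.0997, 95% interval -0.97 to -0.54), so the level fell by 40.7%, at rank 19 of 18438 genes by p (edgeR adjusted p = 0.00691). Without RbpjDEC 1 the edgeR adjusted p was 0.0635 at a log2 fold change of -0.73, and without any other library Vwf stayed below 0.05. Over all genes, the fit without RbpjDEC 1 called 13 lower and 8 higher, against 103 and 106 with all 6 libraries. Scaled to the pan-endothelial markers Vwf came to -0.54 (edgeR adjusted p = 0.0174). In bulk samples, fewer cells of a type and less RNA per cell cannot be told apart.

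Marker lists of EC classes and of other cells were read beside Vwf. Arterial EC markers summed to 1681 to 1817 CPM in CTRL and 1616 to 1704 CPM in RbpjDEC, and venous EC markers averaged 1877 and 1893 CPM, and both sums overlapped between groups. Of the 8 arterial markers, 6 had log2 fold changes below 0, the median over the 8 was -0.56, 5 were lower and 1 higher before adjustment, and Fbln5 was the 1 called lower by edgeR, with 0 higher. DESeq2 called 4 of the 8 lower. Mural cell markers were lower in RbpjDEC, 36.1 to 58.4 CPM against 87.6 to 114 CPM, with 3 of 9 tested called lower by edgeR, 8 by DESeq2 and 2 by limma voom. The part of arterial ECs or of mural cells in the Vwf result was not tested. The platelet marker sums overlapped, as given above.

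Of 10438 genes with a mean of at least 5 CPM, the 3 whose pattern over the 6 libraries was most like that of Vwf were Efhd1, Vim and Fbln5, with root mean square distances of 0.0685, 0.0874 and 0.0894 on the log2 scale. Vim encodes the intermediate filament vimentin and Fbln5, also in the arterial list, an elastic fibre protein. Vim had 225, 241 and 298 CPM in CTRL and 165, 179 and 164 CPM in RbpjDEC. Like Vwf, all 3 were highest in CTRL 3.

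Factor VIII mRNA was abundant and differed little. F8 (ENSMUSG00000031196.13, chrX:75172715-75382615, minus strand, 27 exons) had 876, 809 and 782 CPM in CTRL and 735, 752 and 719 CPM in RbpjDEC. All RbpjDEC libraries lay below all CTRL libraries, by a narrow margin. In log2 the difference was -0.16 (SE 0.0719, 95% interval -0.32 to -0.0045) and did not pass (edgeR adjusted p = 0.270). When libraries were scaled to the pan-endothelial markers, F8 came to 0.046 (edgeR adjusted p = 0.731), a change of sign, with the median of all genes at 0.21 under that scaling.

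Of the protein C activating receptors, neither Thbd nor Procr passed the adjusted threshold. Thbd (ENSMUSG00000074743.4, chr2:148404466-148408188, minus strand, a gene of 1 exon) had 618, 599 and 521 CPM in CTRL and 469, 514 and 466 CPM in RbpjDEC. CTRL 3 and RbpjDEC 2 nearly met, and the groups did not overlap. The log2 fold change of Thbd was -0.26 (SE 0.0820, 95% interval -0.44 to -0.084) at an edgeR adjusted p of 0.131. Without a filter on low counts, the adjusted p of Thbd in edgeR was 0.0215. Over all genes, that setting called 719 lower and 717 higher, against 103 and 106 with the filter. Scaled to the pan-endothelial markers Thbd came to -0.059 (edgeR adjusted p = 0.706).

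Procr (ENSMUSG00000027611.12, chr2:155751117-155755471, plus strand, 3 exons) had 22.6, 21.1 and 24.3 CPM in CTRL and 23.2, 26.5 and 25.4 CPM in RbpjDEC. RbpjDEC 1 lay within the CTRL range and the other two above it. Its log2 fold change was 0.14 (SE 0.0956, 95% interval -0.066 to 0.35; edgeR adjusted p = 0.471). Scaled to the pan-endothelial markers it was 0.35 with an adjusted p of 0.0450 in edgeR, above the median of 0.21 for all genes under that scaling. The difference between Thbd and Procr was not tested.

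Tfpi (ENSMUSG00000027082.15, chr2:84432855-84476775, minus strand, 12 exons) had 48.6, 45.7 and 52.4 CPM in CTRL and 41.9, 45.3 and 46.4 CPM in RbpjDEC. The groups overlapped through CTRL 2 and RbpjDEC 3. Its log2 fold change was -0.14 (SE 0.0817, 95% interval -0.31 to 0.042; edgeR adjusted p = 0.416), and 0.074 (edgeR adjusted p = 0.572) when scaled to the pan-endothelial markers.

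The upstream windows of Tfpi and Procr are shown because each holds 1 match to a motif searched on both strands, the Rbpj-binding letters TGGGAA or the AP-1 letters TGACTCA, and ends at the annotated start of the gene. A second RefSeq window of Tfpi (chr2:84474186-84474424) held neither motif and is not shown. The sequences are from RefSeq (GRCm38.p6) and run 5′ to 3′ on the strand of the gene, with the match in capitals. For Tfpi (chr2:84476776-84477009, minus strand) the match reads TTCCCA, which is TGGGAA on the other strand, and for Procr (chr2:155750967-155751116, plus strand) it is TGACTCA.
Tfpi: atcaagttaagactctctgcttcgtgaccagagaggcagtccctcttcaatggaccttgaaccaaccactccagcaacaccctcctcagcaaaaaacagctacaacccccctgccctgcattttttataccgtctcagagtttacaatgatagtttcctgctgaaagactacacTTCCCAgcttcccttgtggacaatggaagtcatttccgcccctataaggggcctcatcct
Procr: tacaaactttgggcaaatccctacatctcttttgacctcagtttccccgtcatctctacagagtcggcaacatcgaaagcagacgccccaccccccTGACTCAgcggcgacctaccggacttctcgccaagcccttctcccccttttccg
Of 32851 RefSeq windows cut to the same length, 20.4% held TGGGAA at 234 bases and 2.52% held TGACTCA at 150 bases, so the first match is frequent. Procr held no TGGGAA, which says only that these letters are not in this window. Mmrn1 had a RefSeq window (chr6:60944067-60944316) inside its GENCODE gene, with 2 matches to TGGGAA, beside 21.6% of 250-base windows with at least 1. No upstream window was analysed for Vwf, Thbd, Plat and Mmrn2, and those of F8 and F3 lay over annotated exons.

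Tissue factor was near the limit of detection in these cells. F3 (ENSMUSG00000028128.13, chr3:121723537-121735048, plus strand, 7 exons) had 24, 19 and 14 counts in CTRL and 7, 17 and 12 counts in RbpjDEC, or 0.443 ± 0.138 and 0.287 ± 0.125 CPM (SD, n = 3 per group). The groups overlapped. In log2 the difference was -0.63 with a wide 95% interval of -1.81 to 0.56 (edgeR adjusted p = 0.587). Leaving out 1 library moved it between -0.96 (without RbpjDEC 2) and -0.33 (without RbpjDEC 1). The CV between libraries was 31.1% in CTRL and 43.6% in RbpjDEC. Mural cells, whose markers were lower in RbpjDEC as given above, can express F3, and their part in its level was not tested.

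Tissue plasminogen activator was among the most abundant mRNAs and was lower in RbpjDEC by about as much as Vwf, with a larger spread. Plat (ENSMUSG00000031538.6, chr8:22757727-22782844, plus strand, 13 exons) had 692, 956 and 886 CPM in CTRL and 424, 399 and 664 CPM in RbpjDEC. RbpjDEC 3 lay close to CTRL 1, while RbpjDEC 1 and RbpjDEC 2 lay far below every CTRL library. On average the log2 fold change of Plat was -0.77 (SE 0.235, 95% interval -1.35 to -0.19) at an edgeR adjusted p of 0.185. Without RbpjDEC 3 it was -1.04 with an edgeR adjusted p of 0.00290, and leaving out any other single library kept Plat above 0.05. Over all genes, the fit without RbpjDEC 3 called 333 lower and 188 higher, against 103 and 106 with all 6 libraries.

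Plat is known as a gene of glomerular endothelium, and markers of glomerular ECs were lower in RbpjDEC. Their sum was 1418 to 1648 CPM in CTRL and 1022 to 1215 CPM in RbpjDEC, and each of the 7 had a log2 fold change below 0 with a median of -0.56. Gata5, Tbx3 and Lpl were called lower by edgeR, with log2 fold changes of -0.79, -0.56 and -0.84 and adjusted p of 0.0154, 0.0281 and 0.0212. Ehd3, which marks glomerular ECs and was the most abundant of them, had 882, 1095 and 1126 CPM in CTRL and 640, 745 and 813 CPM in RbpjDEC (log2 fold change -0.50; edgeR adjusted p = 0.0611). Scaled to the glomerular EC markers, a choice made after these values were seen, Plat had a log2 fold change of -0.27 (SE 0.148, 95% interval -0.56 to 0.022; edgeR adjusted p = 0.104), with the median of all genes at 0.52. This scaling used the sum of the 7 markers, most of which was Ehd3. The part of the glomerular ECs in the Plat result was not tested.

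**Figure D2:**
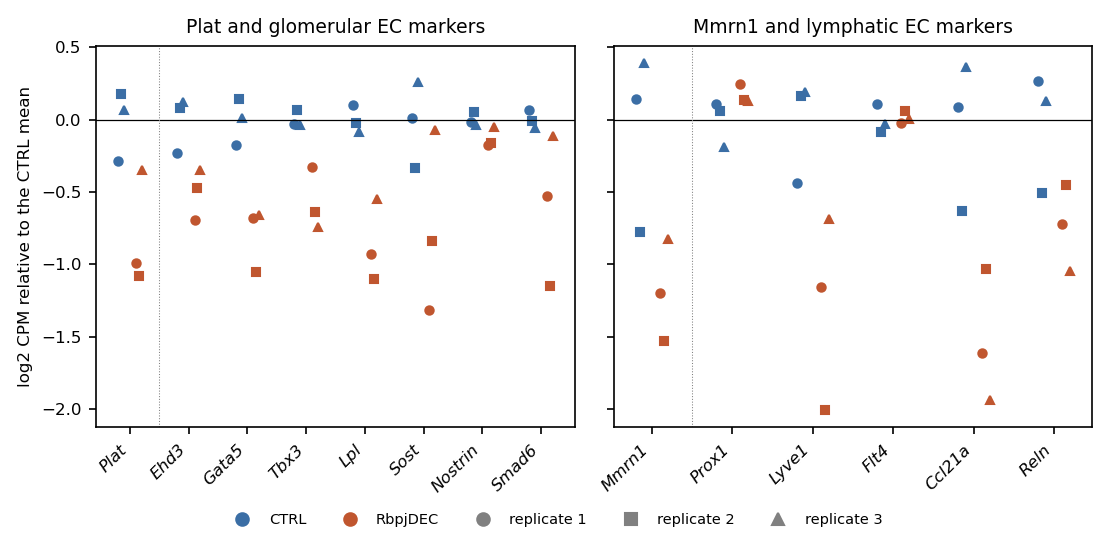
Log2 level of Plat beside 7 glomerular EC markers and of Mmrn1 beside the lymphatic EC markers, in each library relative to the CTRL mean (y axis, log2 CPM; x axis, genes; 1 point per library, with replicates by shape). Plat and the 7 glomerular markers lay below the CTRL mean in all 3 RbpjDEC libraries. Mmrn1, Ccl21a and Reln were low in CTRL 2 as well as in RbpjDEC, while Prox1 and Lyve1 were above the CTRL mean in CTRL 2.

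The multimerins Mmrn2 and Mmrn1 differed in level and in spread. Mmrn2 (ENSMUSG00000041445.9, chr14:34375465-34404287, plus strand, 7 exons) had 1128, 983 and 1107 CPM in CTRL and 913, 1022 and 841 CPM in RbpjDEC, and the groups overlapped through CTRL 2 and RbpjDEC 2. Its log2 fold change was -0.21 (SE 0.0889, 95% interval -0.41 to -0.019) at an edgeR adjusted p of 0.241. Scaled to the pan-endothelial markers it was -0.0037 (edgeR adjusted p = 0.981). The median over the 12 pan-endothelial markers was -0.18 on the log2 scale, 4 of them were lower and 1 higher before adjustment, and their part in Mmrn2, Thbd and F8 was not tested beyond the scaled values given.

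Mmrn1 (ENSMUSG00000054641.10, chr6:60924976-60989378, plus strand, 11 exons) had 24.0, 12.7 and 28.6 CPM in CTRL and 9.47, 7.55 and 12.3 CPM in RbpjDEC. CTRL 2 was close to RbpjDEC 3, and the other two CTRL libraries were far above. The log2 fold change was -1.16 (SE 0.342, 95% interval -2.0 to -0.31), the lowest of the 9 at an edgeR adjusted p of 0.175. Without CTRL 2 it was -1.44 with an edgeR adjusted p of 0.00975, and leaving out any other single library kept Mmrn1 above 0.05. Over all genes, the fit without CTRL 2 called 299 lower and 401 higher, against 103 and 106 with all 6 libraries.

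Mmrn1 is known from platelets and from lymphatic ECs. The lymphatic EC markers summed to 620 to 712 CPM in CTRL and 645 to 681 CPM in RbpjDEC, but Flt4, which kidney blood ECs also express, made up most of this (633 and 639 CPM on average). Among the more specific markers, Prox1, the transcription factor of lymphatic identity, had 7.88 to 9.71 CPM in CTRL and 9.82 to 10.7 CPM in RbpjDEC. Ccl21a, a lymphatic chemokine that has near-identical gene copies, had log2 fold change -1.47 (edgeR adjusted p = 0.0703), Lyve1 -1.19 (0.162) and Reln -0.72 (0.133). Over the 5 lymphatic markers tested the median was -0.72 in log2, and 3 were lower and 0 higher before adjustment. EdgeR called 0 of them and DESeq2 called 2 lower. In CTRL 2, Mmrn1 (-0.78), Ccl21a (-0.63), Reln (-0.50) and Flt4 (-0.085) lay below the CTRL mean in log2. Prox1 (0.063) and Lyve1 (0.16) lay above it there. The part of lymphatic ECs in the Mmrn1 result was not tested.

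**Figure D3:**
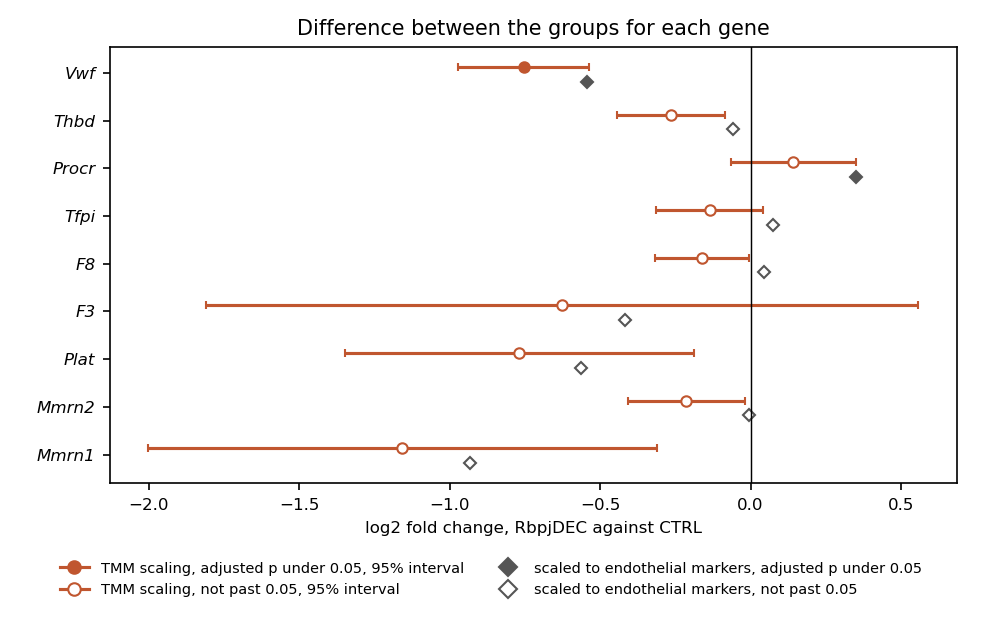
Log2 fold change of RbpjDEC over CTRL for each of the 9 hemostasis genes (x axis, log2) with its 95% interval as a bar (circles), and the value after scaling to the pan-endothelial markers (diamonds, filled where the adjusted p was under 0.05). Vwf was the 1 gene past the adjusted threshold before that scaling, Mmrn1 and F3 had the widest intervals, and F8 and Tfpi changed sign under the second scaling.

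Levels of different genes were compared per length, as CPM per kilobase of merged exons. In CTRL the order was Mmrn2 (270 ± 19.8), Thbd (156 ± 13.9), Plat (135 ± 21.9), F8 (83.0 ± 4.89), Procr (11.2 ± 0.780), Tfpi (8.96 ± 0.616), Mmrn1 (3.71 ± 1.39), Vwf (3.57 ± 0.508) and F3 (0.175 ± 0.0546), each as mean and SD of 3 libraries. Thbd and Plat overlapped between libraries, as did Mmrn1 and Vwf, while the other neighbours in this order did not. In RbpjDEC the order was the same except that Vwf (2.12 ± 0.0764) stood above Mmrn1 (1.66 ± 0.404), a difference within the spread of their libraries. Plat (79.4 ± 23.5) came to overlap F8 (74.3 ± 1.65) there. The anticoagulant receptor Thbd was thus well above Procr and Tfpi in both groups, and F3 was lowest in both.

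The other genes of the pathway were taken from 7 lists that held 87 genes beside the 9, of which 68 were tested. EdgeR called 2 of the 68 lower, Anxa5 and Anxa2, and 0 higher. Before adjustment 16 were lower and 4 higher at p under 0.05, around a median of -0.11 on the log2 scale. Of the 68, DESeq2 called 7 lower and 1 higher, and limma voom called 3 lower and 1 higher, Plgrkt. Over all genes tested, for these counts and those of each list below, edgeR called 0.559% lower and 0.575% higher. Before adjustment it was 8.62% and 8.88%, around a median of 0.0072. DESeq2 called 2.77% and 2.35% of all genes, and limma voom 0.656% and 0.667%. Anxa5 encodes annexin A5, which covers the phosphatidylserine that clotting enzymes need, and had 157, 139 and 156 CPM in CTRL and 115, 123 and 115 CPM in RbpjDEC. Its log2 fold change was -0.36 (SE 0.0722, edgeR adjusted p = 0.0419). Anxa2 encodes annexin A2, a surface receptor for plasminogen and tissue plasminogen activator, and had 252, 229 and 276 CPM in CTRL and 199, 199 and 188 CPM in RbpjDEC. Its log2 fold change was -0.37 (SE 0.0778, edgeR adjusted p = 0.0468). Neither annexin overlapped between groups. With 1 library left out, Anxa5 passed in 2 of 6 edgeR fits (without CTRL 2 or RbpjDEC 3), with adjusted p up to 0.186. Anxa2 passed in 1 of 6 (without CTRL 2), with adjusted p up to 0.184. Over all genes, 299 were called lower without CTRL 2 and 333 without RbpjDEC 3, against 103 with all 6 libraries. Scaled to the pan-endothelial markers, Anxa5 came to -0.15 (edgeR adjusted p = 0.195) and Anxa2 to -0.16 (0.177). With library size alone, their edgeR adjusted p were 0.0567 and 0.0629. Both stayed below 0.05 in DESeq2 (adjusted p = 0.00182 and 0.00212) and limma voom (0.0418 and 0.0443).

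In the list of the plasminogen system, which holds Plat and Anxa2, 10 of 13 genes were tested, edgeR called 1 lower and 0 higher, DESeq2 and limma voom each called 1 lower and 1 higher, and before adjustment 3 lay below and 1 above at p under 0.05. The receptor Plgrkt had 55.6, 73.0 and 65.8 CPM in CTRL and 91.6, 83.3 and 89.0 CPM in RbpjDEC, without overlap, at an adjusted p of 0.0504 in edgeR, 0.0465 in limma voom and 0.0035 in DESeq2. With 1 library left out, its adjusted p in edgeR ranged from 0.0159 to 0.215. S100a10, the partner of annexin A2, had a log2 fold change of -0.077 (edgeR adjusted p = 0.723). The urokinase gene Plau had 99.8, 82.5 and 121 CPM in CTRL and 105, 105 and 108 CPM in RbpjDEC, with overlap.

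The anticoagulant list had 10 of 13 genes tested, with 1 called lower and 0 higher, or 3 and 0 at p under 0.05 before adjustment. Beside Anxa5 and Thbd, the third was Pros1 (protein S, the cofactor of activated protein C), at 141 and 118 CPM on average and a log2 fold change of -0.26 (edgeR adjusted p = 0.118). Gas6, a ligand of TAM receptors related to protein S, had the highest level of the list per length and differed little (-0.048; edgeR adjusted p = 0.810).

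Coagulation factors and cofactors had 13 of 21 tested, 0 called in either direction, and 2 lower before adjustment with 0 higher. These were F8 and Lman1, the cargo receptor that factor V and factor VIII need to leave the endoplasmic reticulum, which had a log2 fold change of -0.27 (edgeR adjusted p = 0.0934). DESeq2 called 1 of this list lower and limma voom 0. Vkorc1, which recycles vitamin K, had a log2 fold change of -0.37 (edgeR adjusted p = 0.335), and the transglutaminase Tgm2 -0.067 (0.781).

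Of the 3 tested thrombin and protease receptors, 0 were called by edgeR, and before adjustment 1 was lower and 1 higher at p under 0.05. DESeq2 called 1 of them lower and limma voom 0. F2rl1 (PAR2) was low, at 3.96, 1.84 and 2.86 CPM in CTRL and 0.691, 0.643 and 1.67 CPM in RbpjDEC, with a log2 fold change of -1.53 (SE 0.416, edgeR adjusted p = 0.10). F2rl3 (PAR4) had a log2 fold change of 0.43 (edgeR adjusted p = 0.277), and F2r (PAR1), the main thrombin receptor of ECs, -0.13 (0.460).

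The list for VWF, platelet adhesion and its control had 12 of 15 tested, with Vwf the 1 called lower by edgeR and 0 higher, or 5 and 0 at p under 0.05 before adjustment. DESeq2 called 3 of them lower and limma voom 2, with 0 higher by either. Its median log2 fold change was -0.35. Podxl (podocalyxin), a surface sialomucin of ECs and podocytes, had 3372, 2982 and 3333 CPM in CTRL and 2554, 2678 and 2397 CPM in RbpjDEC (-0.35; adjusted p = 0.0678 in edgeR, 0.0418 in limma voom and 0.00208 in DESeq2). Nt5e (CD73), which makes adenosine, had a log2 fold change of -0.87 (adjusted p = 0.140 in edgeR, 0.0934 in limma voom and 0.0405 in DESeq2). Selp (P-selectin), which is stored with VWF, had 5.43 to 8.28 CPM in CTRL and 4.64 to 10.7 CPM in RbpjDEC.

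All 23 genes for the machinery of Weibel-Palade bodies, the granules that store VWF, were tested, and 0 were called by edgeR, DESeq2 or limma voom. Before adjustment 5 were lower and 2 higher at p under 0.05, around a median of -0.12 on the log2 scale. Unc13b (-0.28) and Vamp3 (-0.22) had the smallest p, each with an adjusted p of 0.162 in edgeR, and Stx4a had 0.13 (0.424).

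The list of the EMILIN and multimerin family with the partners of MMRN2 had 7 of 8 tested, with 0 called by edgeR, 1 called lower by DESeq2 and 0 by limma voom, and 4 lower with 0 higher before adjustment. The MMRN2 receptors Clec14a (-0.24; edgeR adjusted p = 0.232) and Cd93 (-0.044; 0.854) were abundant, at 423 and 933 CPM in CTRL. Cd248, a mural and stromal cell receptor that also binds MMRN2, had 4.78, 2.68 and 3.62 CPM in CTRL and 1.85, 1.81 and 2.42 CPM in RbpjDEC (-0.86; edgeR adjusted p = 0.126), beside the lower mural marker sum given above.

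**Figure D4:**
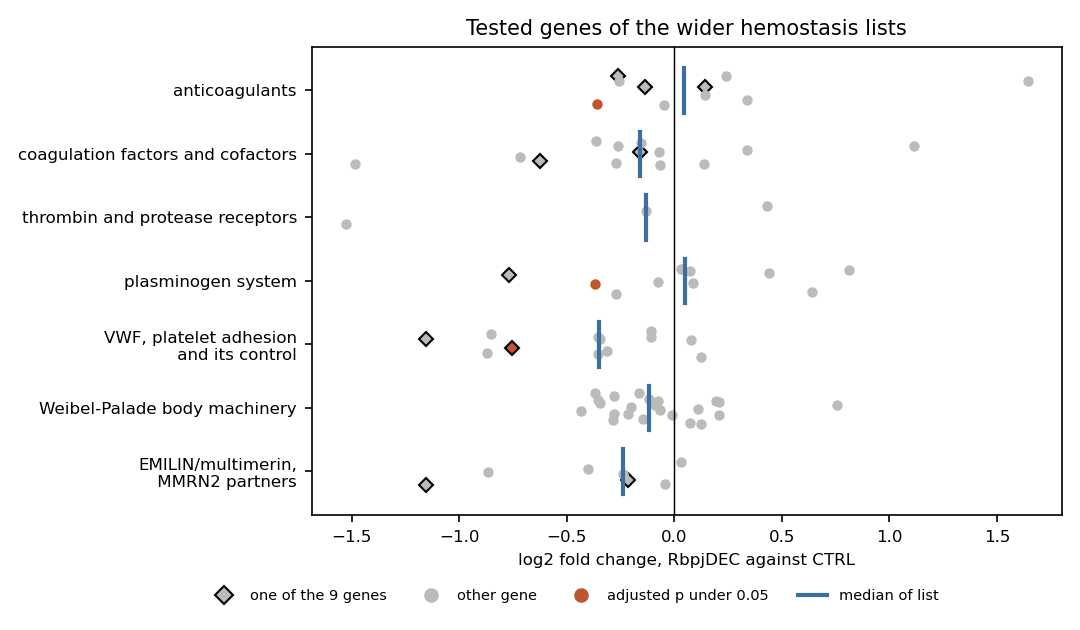
Log2 fold change of RbpjDEC over CTRL (x axis, log2) for every tested gene of the 7 lists (1 row per list, 1 point per gene), with the median of each list as a line, the genes called at an adjusted p under 0.05 in red and the 9 hemostasis genes as diamonds. Vwf, Anxa5 and Anxa2 were the genes called, and Mmrn1 stands in 2 lists.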

How the data were processed

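The authors sorted CD31+ CD45- cells from mouse kidney, made stranded total RNA libraries (SMARTer Pico) and sequenced them in 1 run. Per the labels and the study's methods, reads went through nf-core/rnaseq 1.4.2 with Trim Galore 0.6.4, STAR 2.6.1d and featureCounts (Subread 1.6.4) on GRCm38.p6. The deposited values are raw read counts per gene for the 6 libraries, and the strand setting of the counting is not given in the sources used here. Without it, reads of a gene and an antisense partner cannot be told apart.

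From these counts, edgeR 4.0.16 (R 4.3.3) was run with TMM scaling, its filterByExpr filter, a robust quasi-likelihood fit of the 2 groups and Benjamini-Hochberg adjustment over all tested genes. Intervals are 95%. CPM are TMM-scaled. Merged exon lengths and positions came from GENCODE M21 of the same build, an older release than the study used, for 55141 of the 55401 genes. None of the 9 genes shares exon bases with another gene there. The fit was tested on simulated data with known changes. Replicates are separate mice, and limits from a count of 3 cover counting error only.

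The 9 genes and all lists were chosen with earlier results of these data known. Named are the 9 genes, Rbpj, every list gene past an adjusted p of 0.05, in each list the 2 genes outside the 9 with the smallest p (called or not) and the one outside the 9 highest per length, the 3 genes most like Vwf over the 6 libraries, and markers. Plau and Selp were named outside this rule after their values were seen. Alternatives were DESeq2 1.42.0 size factors and Wald test (on the same genes, without outlier or independent filtering), library size alone, scaling to the pan-endothelial markers, other low-count filters, limma 3.58.1 voom, a replicate block, and leaving out each library. Promoter windows came from RefSeq and matched 5 of the 9 genes.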

Additional observations from a re-analysis of the deposited data

How the results depend on the processing

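For the fold changes of the 9 genes, 118 alternative values kept their direction and side of the threshold, 2 changed sign, 5 newly passed and 1 no longer passed. Scaling to the pan-endothelial markers moved the median log2 fold change of all genes to 0.21, turned F8 to 0.046 and Tfpi to 0.074, put Procr past the threshold at 0.35 and so called 1 of the 9 genes higher. It called 0 of the 68 other pathway genes lower and 3 higher, and 1500 genes higher over all. Library size alone called 0 pathway genes lower and 1 higher, with 82 genes lower and 159 higher over all, against 103 and 106. Without a low-count filter Thbd passed at -0.26, 2 of the 9 genes and 12 pathway genes were called lower and 2 pathway genes higher, with 719 genes lower and 717 higher over all. DESeq2's test called 7 pathway genes lower and 1 higher, with 510 and 434 over all. A filter of at least 1 CPM in 3 libraries and limma voom each called 1 pathway gene higher. The causes of these changes were not tested.

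Leaving out 1 library gave 13 to 333 genes lower and 7 to 401 higher over all, 0 to 2 of the 9 genes lower, and 0 to 6 pathway genes lower and 0 to 1 higher. Vwf ranged from -0.83 to -0.63, Plat from -1.04 to -0.63 and Mmrn1 from -1.44 to -0.91. Vwf passed in every such fit but that without RbpjDEC 1.

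Deviations of same-numbered libraries correlated at 0.0231, 0.00916 and 0.00544, each below the best correlation with another number, so the numbers were not taken as pairs. With the replicate block, Mmrn1 passed at -1.11 (edgeR adjusted p = 0.00285). That fit called 2 of the 9 genes and 1 pathway gene lower and 1 pathway gene higher, with 178 genes lower and 166 higher over all. Anxa2 was the pathway gene called lower (edgeR adjusted p = 0.0499), and Anxa5 had 0.0517.

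Plat scaled to the glomerular EC markers was added after the data were seen and stayed on the same side of the threshold. F3 had the lowest counts of the 9 genes, 7 to 24 per library, and the part of depth in its wide interval was not tested.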
